A study of Mus musculus with 30 samples.

Results

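Genes that mark the blood vessels and the meninges were followed in mouse embryonic spinal cord, in forebrain and in cultured neural progenitors, with and without the oligodendrocyte-lineage transcription factors Olig1 and Olig2. The members were the probe sets whose platform symbol stood on a list of 34 endothelial, mural, meningeal and related matrix genes. A probe set with a single symbol existed for 33 of the 34, out of 18193 genes in all. Ly6c1 shares its probe set with Ly6c2 and is given no value. The 33 genes comprised 13 endothelial genes, 8 genes of mural cells, 9 genes of meningeal fibroblasts and their matrix, and 3 ligand and matrix genes (Angpt1, Sparc and Timp3).

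Tissue came from E18.5 embryos, 2 with the label Olig2 -/- and 2 with the label Olig2 +/-, and each embryo gave a spinal cord array and a forebrain array. The series design writes these genotypes as Olig1/2-/- and Olig1/2+/-, and they are called null and heterozygous here. Wild-type tissue was not analysed here, and the tissue labels name no Ink4a/Arf genotype. The other 22 arrays came from neurospheres, floating cultures of neural progenitors, which were derived from the ganglionic eminences at E14.5 and kept in EGF and bFGF without serum. All neurospheres were Ink4a/Arf-/- and had received human EGFRvIII, a constitutively active form of the EGF receptor, by retrovirus at passage 1 with puromycin selection. Without a further virus there were 6 null (Olig1/2-/-), 3 heterozygous (Olig1/2+/-) and 3 wild-type (Olig1/2+/+) cultures. Of these lines, 3 null and 2 heterozygous ones were also measured after retrovirus for Olig2 and after retrovirus for GFP, given at passage 3 with blasticidin selection. Cultures were harvested between passage 4 and passage 15, and the labels do not give the passage of each array. All animals were of mixed Swiss and C57BL/6J background.

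Values are MAS5 signals on a linear scale, and array medians ran from 128.9 to 217.4. Each gene was read from its brightest probe set, and no probe set is compared in level with another. In spinal cord the Olig2 signal was 58.5 and 23.8 in null embryos, against 335 and 736 in heterozygous embryos (log2 difference -3.24, adjusted p 0.0431 with limma). In neurospheres of null lines signal remained at both genes, with differences of -1.61 for Olig1 and -0.80 for Olig2 against the other 6 cultures without a further virus. The Olig2 probe set read 4450, 5697 and 10011 on null arrays labelled Olig2, against 10275, 8279 and 8950 on null arrays labelled GFP. It read 11641 and 10464 on heterozygous arrays labelled Olig2 (lines 11 and 15), against 14757 and 13286 on those labelled GFP, so it was lower on the arrays labelled Olig2 in 4 of the 5 lines. No source used here places the probes relative to the deletion or the virus, so these readings check neither label. The forebrain samples held choroid plexus RNA, since Ttr read 29997 to 33329 there, while it read 122.4 to 463.9 in spinal cord.

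Endothelial cells line the vessels and, in the brain, form the blood-brain barrier with tight junctions (Cldn5) and selective transporters (Abcb1a, Slco1c1). They are guided by VEGF through Kdr and Flt1 and by angiopoietins through Tek, and they attract mural cells, the pericytes and smooth muscle cells that carry Pdgfrb and Notch3. The meninges wrap brain and spinal cord in fibroblast layers that secrete collagens and small proteoglycans such as decorin (Dcn), lumican (Lum) and biglycan (Bgn), and that supply retinoic acid through Aldh1a2.

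The first comparison asked how the members stood in null against heterozygous spinal cord. Dcn, the collagen-binding proteoglycan, rose about 1.98-fold in null cords and was the only member past the test. Most of the remaining members read higher in null cords by smaller amounts that did not pass. Of 31 members bright enough to test, 27 had a log2 difference above 0, with a median of 0.36, while 49.1% of all 12342 genes tested lay above 0 with a median of -0.00. Called members numbered 1 of 31, and 0.13% of all genes were called, 0.0567% higher (7 genes) and 0.0729% lower (9 genes). At an unadjusted p under 0.05 stood 8 of the 31 members, against 6.01% of all genes tested. Both null arrays exceeded both heterozygous arrays for 16 of 31 members, which compares with 17% of all genes, and both lay below for 2 members (Flt1 and Des), which compares with 17.8%. In bulk tissue, fewer cells of a type and less RNA per cell cannot be told apart.

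**Figure D1:**
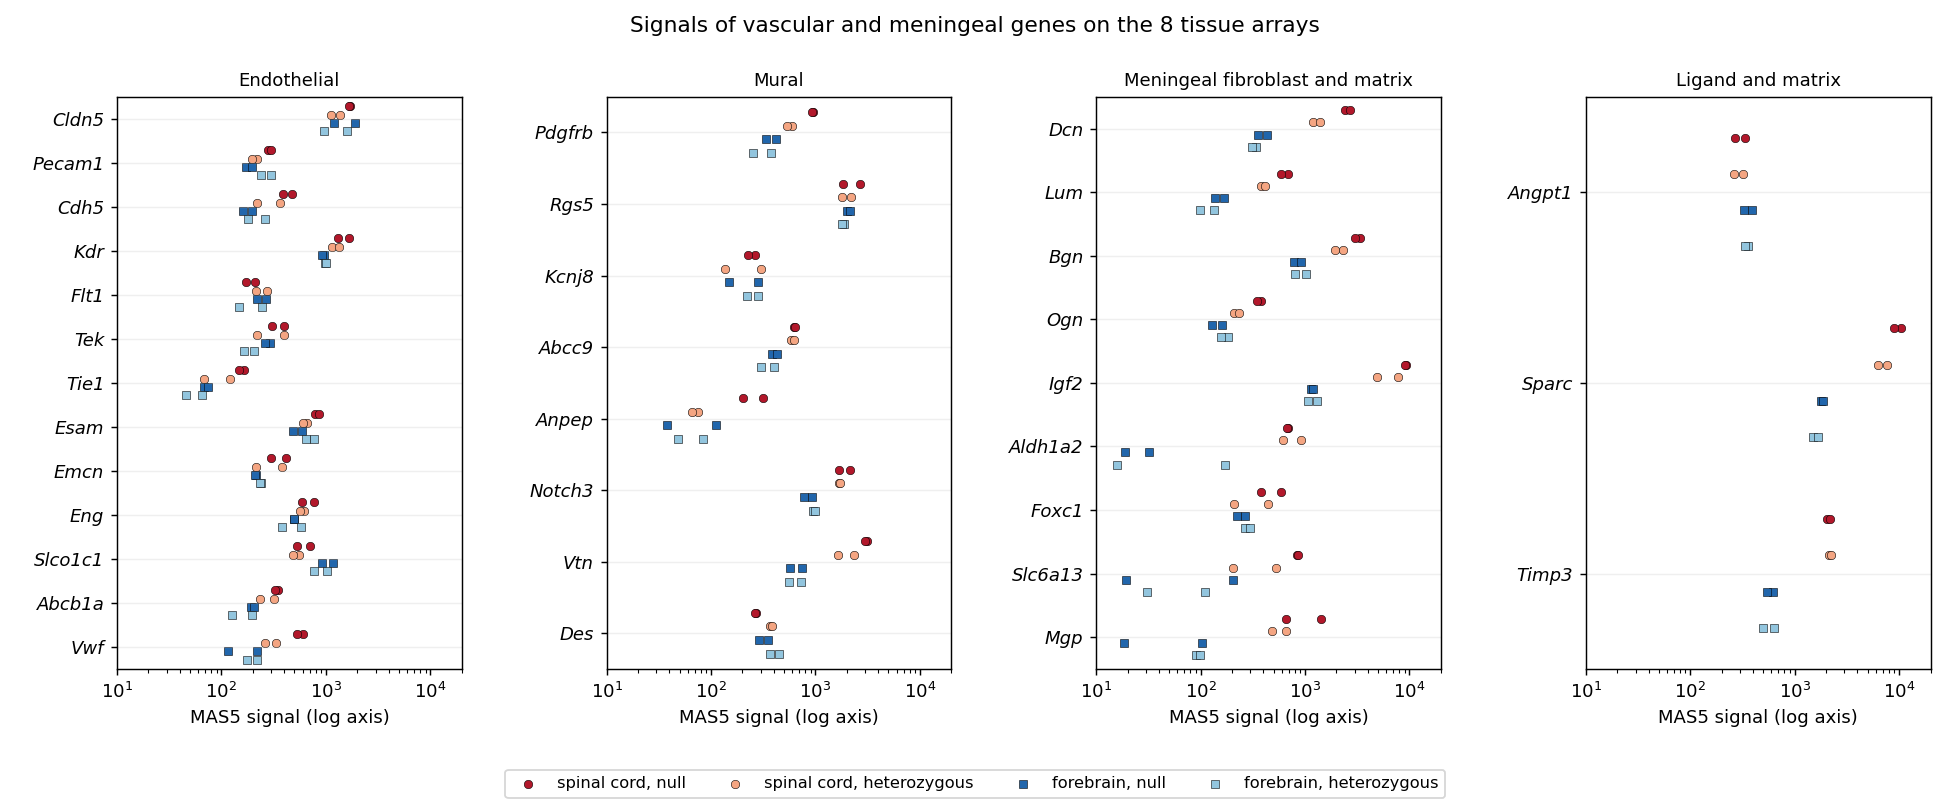
MAS5 signals (log axis) of the 33 members on the 8 tissue arrays, in 4 panels by cell class; each point is 1 array, with null above heterozygous and spinal cord (circles) above forebrain (squares). In the meningeal panel the spinal cord points of Dcn, Bgn and Igf2 lie far to the right of the forebrain points, and the null cords of Dcn, 2416 and 2709, lie to the right of the heterozygous cords.

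Genes of meningeal fibroblasts and their matrix had the highest class median. Their median difference was 0.66 over 9 members, with 8 above 0 and 6 free of overlap. The heterozygous cords also differed from each other across this class. The mean log2 signal of its 9 members was 9.30 and 9.83 in heterozygous cords (embryos 3 and 4), against 10.35 and 10.12 in null cords (embryos 1 and 2). Dcn read 2416 and 2709 in null cords, against 1198 and 1377 in heterozygous cords. The null cords were high in both embryos and did not overlap the heterozygous ones. The log2 difference was 0.99 (SE 0.15, limma adjusted p 0.0431). That call rests on all 4 cords, since it was lost whenever any 1 of them was left out, and it was lost in 7 of 13 alternatives in all (0.89 to 1.08, adjusted p 0.0134 to 0.407).

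Lum, the neighbour of Dcn on chromosome 10 and a proteoglycan of the same family, read 690 and 585 in null cords, against 381 and 413 in heterozygous cords. In GRCm38.p6 the genes lie at chr10:97479500-97518163 (Dcn) and chr10:97565501-97572703 (Lum). The Lum groups did not overlap, and the difference of 0.66 (SE 0.27) was not called (adjusted p 0.772). Bgn, another small proteoglycan of connective tissue, read 3337 and 2997 in null cords, against 1916 and 2305 in heterozygous cords. All 4 Bgn values kept the genotypes apart, with a difference of 0.59 (SE 0.15) and an adjusted p of 0.383. Its other probe sets gave 0.84 and 1.18, and when every probe set was tested Bgn was the member called (1.18, adjusted p 0.0342) while Dcn was not (adjusted p 0.0578).

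The growth factor gene Igf2 read 9201 and 9054 in null cords, against 4851 and 7784 in heterozygous cords, with a difference of 0.57 (adjusted p 0.555). Its heterozygous cords differed from each other more than the null cords did. Slc6a13, the GABA transporter of meningeal cells, had the largest difference of the 31 members, 1.32 (SE 0.77), from 833 and 862 in null cords and 204 and 528 in heterozygous cords. The groups did not overlap, and the spread between the heterozygous cords left the adjusted p at 0.903. Ogn, a further small proteoglycan, was at 0.67, Mgp, an inhibitor of calcification, at 0.76, and the mesenchymal transcription factor gene Foxc1 at 0.61, and none was called (adjusted p 0.833 to 0.939). Aldh1a2 had the only difference below 0 in this class (-0.15, SE 0.66).

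Endothelial members lay mostly above 0 as well, by less. Their median was 0.29, with 11 of 12 above 0, 6 without overlap above and 1 (Flt1) below, and 0 of 12 were called. Vwf, the clotting and adhesion protein of endothelium, read 608 and 531 in null cords, against 263 and 330 in heterozygous cords. That is a difference of 0.91 (SE 0.32, adjusted p 0.62) with no overlap. Cdh5, the cadherin of endothelial junctions, was at 0.59, Pecam1 at 0.44, Cldn5 at 0.44, the junction protein gene Esam at 0.36 and Abcb1a at 0.29, each with both null cords above both heterozygous cords. Tie1, an endothelial receptor kinase, was too dim for the test, at 165 and 146 in null cords, against 67.6 and 120 in heterozygous cords. Kdr (0.25), Tek (0.23), Emcn (0.29), Eng (0.18) and Slco1c1 (0.23) had overlapping groups. A dimmer Eng probe set read 155.9 and 217.6 in null cords, against 50.8 and 72.7 in heterozygous cords (1.38). The same Eng probe set gave -1.09 in forebrain. Flt1, the VEGF receptor often described as a decoy, read 173 and 210 in null cords, against 214 and 270 in heterozygous cords (-0.32, adjusted p 0.978).

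Mural members had a median of 0.17 over 7 tested, with 6 above 0 and 0 called. Pdgfrb, the receptor through which endothelial PDGF-B recruits pericytes, read 950 and 928 in null cords, against 598 and 530 in heterozygous cords. The groups were well apart, and the difference of 0.72 (SE 0.21) had an adjusted p of 0.515. Vtn, vitronectin, which pericytes of the central nervous system express, read 3139 and 2983 in null cords, against 1630 and 2314 in heterozygous cords (0.65, SE 0.19, adjusted p 0.508). Des, the intermediate filament desmin of muscle and pericytes, ran the other way at 267 and 262 in null cords, against 363 and 385 in heterozygous cords (-0.48, adjusted p 0.845). A dimmer Des probe set gave 0.49. The pericyte markers Rgs5 (0.17), Kcnj8 (0.24), Abcc9 (0.08) and Notch3 (0.17) had smaller differences that were not called. A dimmer Notch3 probe set gave -0.41, and the other probe sets of Rgs5 and of Abcc9 lay on both sides of 0. Anpep, a peptidase of pericytes, was too dim for the test, at 202 and 315 in null cords, against 75.7 and 65.1 in heterozygous cords.

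Of the 3 ligand and matrix genes, Sparc differed most between the cords. This collagen-binding matricellular protein read 10343 and 9036 in null cords, against 6236 and 7611 in heterozygous cords. The groups were apart, and the difference of 0.49 (SE 0.12) had an adjusted p of 0.303. Angpt1, the Tek ligand made by mural cells, was at 0.03 and Timp3, an inhibitor of matrix metalloproteinases, at -0.05.

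Companion genes that are not members were read in the same fit. All 19 tested of the other meningeal fibroblast genes lay above 0, 14 without overlap, with a median of 0.64, and 0 were called. Here too the heterozygous cords differed, with a mean log2 signal over the list of 8.84 and 9.43 (embryos 3 and 4). In null cords it was 9.72 and 9.76 (embryos 1 and 2). The fibrillar collagen gene Col3a1 was at 0.79 (adjusted p 0.135). All 10 basement membrane genes lay above 0, 6 without overlap, and 1 was called, the collagen IV gene Col4a1 (0.69, SE 0.09, adjusted p 0.0169). Other endothelial genes had 17 of 24 above 0 (median 0.18), whereas other mural genes had 2 of 7 above 0 (median -0.10). Among vascular signalling ligands 3 of 11 lay above 0, with Cxcl12, a chemokine of the meninges, highest at a mean signal of 1939 ± 306 in null cords and 963 ± 196 in heterozygous cords (SD, n = 2 each; limma adjusted p 0.108).

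Markers of other cell types moved with the cords to differing degrees. Microglial genes summed to 8229 to 8394 in null cords, against 5758 to 6415 in heterozygous cords, with 6 of 7 above 0 and 0 called. Skeletal muscle genes summed to 1359 to 1660 in null cords, against 2136 to 2305 in heterozygous cords, and their embryonic myosin gene Myh3 read at most 84.3 on any cord array. Cartilage genes summed to 2726 to 3125 in null cords, against 3131 to 3487 in heterozygous cords. Choroid plexus genes summed to 1312 to 1318 in null cords, against 1465 to 1575 in heterozygous cords. The log2 ratio of Gapdh 3' over 5' probe sets, a sign of RNA quality, was 0.30 and 0.29 in null cords, against 0.37 and 0.04 in heterozygous cords. The part of microglial genes and of RNA quality in the differences of the members was not tested.

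In forebrain the same contrast showed no shift of the members in either direction. Of 31 members 16 lay above 0, with a median of 0.03, and 0 were called by limma, where 0.0405% of all genes were called, 0.0324% higher (4 genes) and 0.0081% lower (1 gene). At an unadjusted p under 0.05 stood 1 member, Esam, against 6.34% of all genes. The null forebrains lay above both heterozygous ones for 5 members and below them for 7, which compares with 18.3% and 18.1% of all genes. The 3 largest differences were those of Aldh1a2 (-0.91, SE 0.66), Mgp (-0.79, SE 0.54) and Tek (0.54, SE 0.32).

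Aldh1a2 read 18.7 and 32.2 in null forebrains, against 171 and 15.7 in heterozygous forebrains, so that its difference rests on 1 heterozygous embryo (adjusted p 0.857). Mgp read 104.1 and 18.3 in null forebrains, against 91.0 and 99.1 in heterozygous forebrains, and here 1 null embryo was low (adjusted p 0.85). Tek, the angiopoietin receptor, read 294 and 260 in null forebrains, against 166 and 207 in heterozygous forebrains, without overlap (adjusted p 0.82). Dcn read 356 and 430 in null forebrains, against 337 and 310 in heterozygous forebrains, a difference of 0.26 (SE 0.15, adjusted p 0.814).

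**Figure D2:**
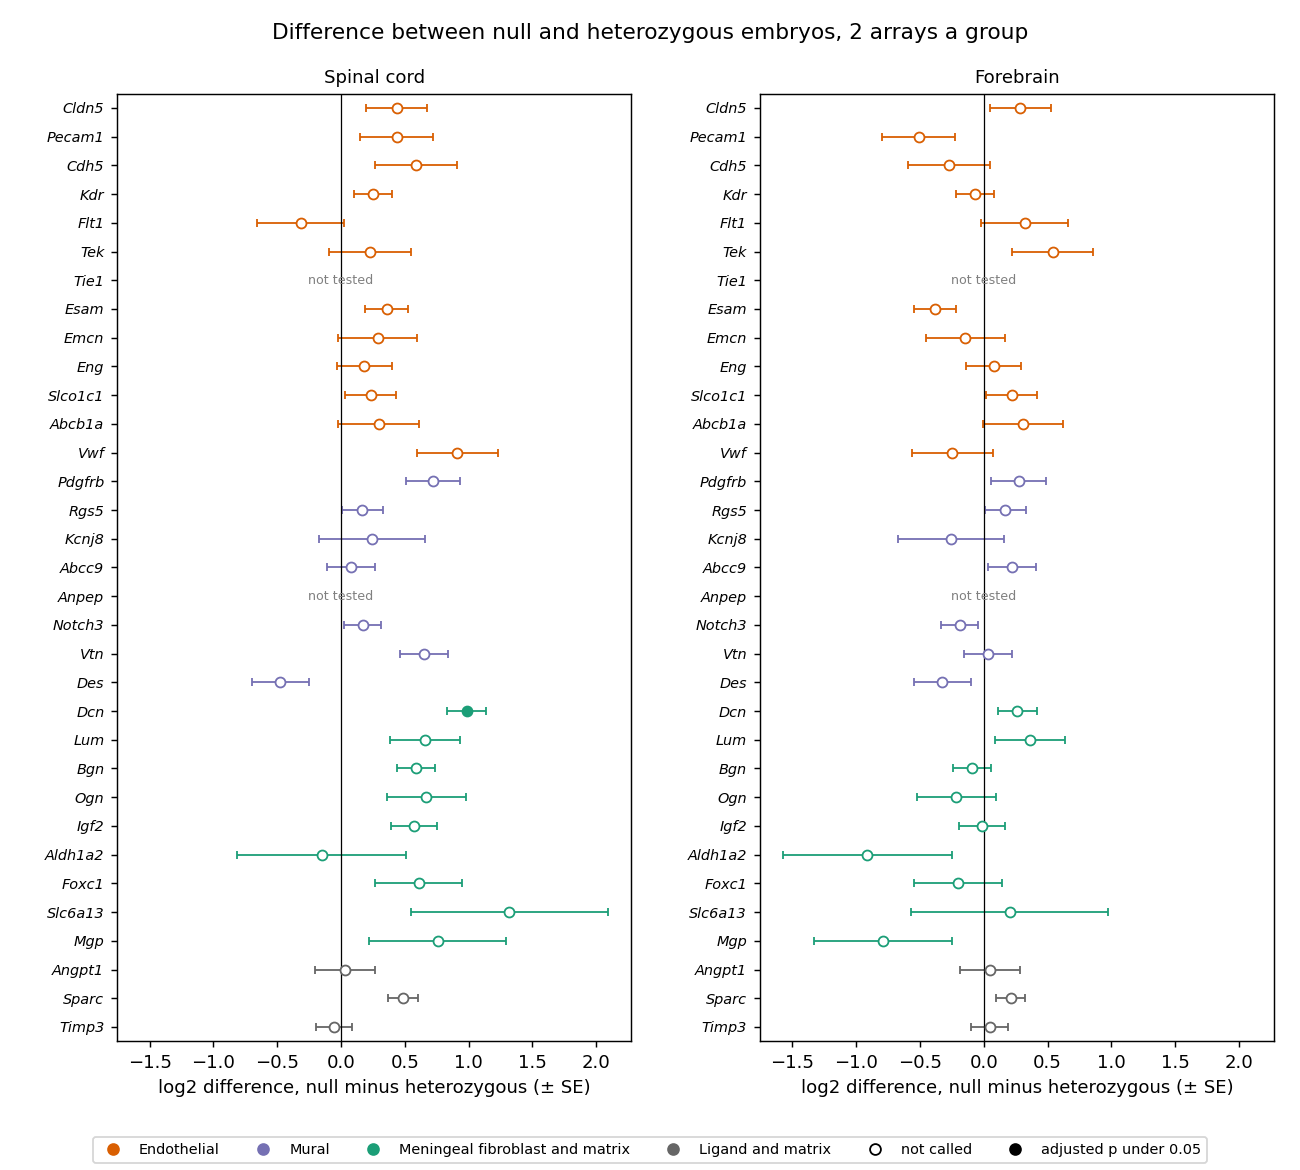
Log2 difference of null minus heterozygous embryos (point, with its SE) for each member in spinal cord (left) and forebrain (right), 2 arrays a group; colours mark the cell classes, and a filled point is called at an adjusted p under 0.05. In spinal cord most points lie right of 0 and the point of Dcn at 0.99 is the only filled one, while in forebrain the points lie on both sides of 0.

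Whether the genotype difference itself differed between the tissues was tested in the same fit. No member was called by limma, 0 of 31, and of all genes 0% were called (0 of 12342). At an unadjusted p under 0.05 stood 7 members, Dcn, Bgn, Esam, Vwf, Pecam1, Vtn and Igf2, against 5.71% of all genes. The spinal cord difference was the higher of the 2 for 23 of 31 members and for all 9 meningeal members, whose median of this difference of differences was 0.76, while over all genes it was above 0 for 49.8% with a median of -0.00. That 0.76 is the value of Aldh1a2, from -0.15 in cord and -0.91 in forebrain, the latter resting on 1 heterozygous embryo. Lum, Ogn, Aldh1a2 and Mgp reached the array median in no forebrain, so their forebrain differences compare signals below the array medians. The interaction was 0.72 (SE 0.22) for Dcn, 0.68 (SE 0.21) for Bgn, 0.74 (SE 0.24) for Esam and 1.16 (SE 0.45) for Vwf, with adjusted p from 0.815 to 0.829. An unequal response of the tissues is therefore not shown for any member.

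The contrast between tissues was much larger than that between genotypes. Against forebrain, spinal cord had higher signal for 18 of 31 members and lower signal for 1, where 40% of all genes were called, 21.3% higher and 18.7% lower. All cords exceeded all forebrains for 16 members and lay below them for 1, which compares with 20% and 18.1% of all genes. By class, 8 of 9 meningeal members, 4 of 12 endothelial, 4 of 7 mural and 2 of 3 ligand and matrix members were called higher. These counts describe the members that passed the filter and carry no further weight: Lum, Ogn, Aldh1a2 and Mgp reached the array median in all 4 cords and in no forebrain, and Slc6a13 in 3 cords and 1 forebrain, so they entered the test through the cords, where they are high. The class medians were 2.30 for meningeal members, 1.88 for ligand and matrix members, 0.68 for mural members and 0.43 for endothelial members, with -0.01 over all genes.

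Aldh1a2, the retinoic acid synthesis enzyme of the meninges, was low in forebrain, where its values lay below the array medians. It read 680 and 669 in null cords and 610 and 924 in heterozygous cords, against 18.7, 32.2, 171 and 15.7 in the 4 forebrains. All cords lay above all forebrains, by 3.70 (SE 0.47, adjusted p 9.2e-05), a size that ran from 2.81 to 4.34 over the alternatives. Mgp read 480 to 1410 in the 4 cords, against 18.3 to 104.1 in the 4 forebrains, also without overlap (3.15, SE 0.38, adjusted p 6.5e-05). Igf2 read 4851 to 9201 in cords, against 1066 to 1306 in forebrains (2.66, SE 0.13, adjusted p 8.4e-08). Every one of these cords exceeded every forebrain.

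Dcn followed at 2.30 (SE 0.11), Lum at 1.80 (SE 0.19), Bgn at 1.54 (SE 0.11) and Ogn at 0.81 (SE 0.22), all called and all without overlap. Slc6a13 was called at 2.73 (SE 0.55), although its lowest cord, a heterozygous one at 204.0, stayed under its highest forebrain at 204.7. Foxc1 was the meningeal member not called (0.51, adjusted p 0.12). Sparc read 6236 to 10343 in cords, against 1488 to 1880 in forebrains (2.25, SE 0.08, adjusted p 1.1e-08). Its other probe sets gave 1.53 and, for a dimmer one, -0.03. Timp3 read 2044 to 2247 in cords, against 500 to 634 in forebrains (1.88, SE 0.10, adjusted p 1.9e-07).

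Among mural members, Vtn read 1630 to 3139 in cords, against 559 to 740 in forebrains (1.89, SE 0.13, adjusted p 1.3e-06). Pdgfrb was at 1.06 (SE 0.15) and Notch3 at 0.97 (SE 0.10), both called. Rgs5 (0.10), Kcnj8 (-0.03) and Des (-0.17) were not called. Other Rgs5 probe sets gave 0.54, -0.14 and -0.67, and the last was called lower in cords when every probe set was tested (adjusted p 0.00634). Abcc9, a potassium channel regulator that lies beside the channel gene Kcnj8 on chromosome 6, was called at 0.68, but this depended on the probe set. With probe sets that may cross-hybridise left out, the brightest of those left gave -0.13 (limma adjusted p 0.701). A dimmer one gave 0.51.

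Endothelial members divided. Vwf was higher in cords by 1.14 (SE 0.22), Cdh5 by 0.78 (SE 0.23), Abcb1a by 0.72 (SE 0.22) and Kdr by 0.49 (SE 0.10). For Cdh5 the direction depended on the probe set, as a dimmer one gave -0.44. Single arrays decided some of these calls. That of Cdh5 was lost without the cord of embryo 2 or 4 or the forebrain of embryo 2 or 3, that of Abcb1a without the cord of embryo 1, 2 or 3 or the forebrain of embryo 1 or 4, and that of Ogn without the cord of embryo 1 (adjusted p 0.0503 to 0.0914). Eng was called without the cord of embryo 2 or the forebrain of embryo 4, Foxc1 and Tek without the cord of embryo 3, and Emcn without the cord of embryo 4 (adjusted p 0.0163 to 0.0462). Slco1c1, the thyroid hormone transporter of the brain barrier, was the member called lower in cords. It read 486 to 706 in cords, against 770 to 1164 in forebrains, without overlap (-0.75, SE 0.14, adjusted p 0.0014). Cldn5 (0.08), Pecam1 (0.14) and Flt1 (-0.01) had overlapping groups and were not called.

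Other meningeal fibroblast genes gave 15 of 19 called higher in cords and 1 lower (median 2.43), led by the prostaglandin D synthase gene Ptgds (4.45). Basement membrane genes gave 8 of 10 higher. Other endothelial genes gave 8 of 24 higher, with a median of 0.25. Microglial genes gave 6 of 7 higher and genes of radial glia and astrocytes 11 of 12 higher, and the Gapdh ratio was 0.04 to 0.37 in cords, against -0.22 to -0.07 in forebrains. The part of these in the tissue differences of the members was not tested.

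Which members neurospheres expressed was read against each array's own median signal. Of 33 members, 4 reached it on all 22 neurosphere arrays, namely Kdr, Notch3, Foxc1 and Sparc, and 15 reached it on none. Over all 18193 genes, 46.6% reached the median on all 22 arrays and 23.5% on none. On all 8 tissue arrays 19 of the 33 members (57.6%) reached it, near the 50.7% of all genes. Kdr, the main VEGF receptor, read 257 to 482 over the 22 arrays with a median of 311.7. Notch3 read 864 to 2510 (median 1486), Foxc1 349 to 918 (median 529) and Sparc 3543 to 24671 (median 11504).

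Timp3 reached the array median on 20 neurosphere arrays, Des on 19, Emcn on 13, Esam on 12, Eng on 10, Angpt1 on 9, Igf2 on 8, Bgn on 7, Slco1c1 on 5 and Cldn5 on 3. Flt1 and Rgs5 reached it on 2 and Tek and Slc6a13 on 1. By class, none of the 22 arrays reached the median for 5 of 13 endothelial, 5 of 8 mural, 5 of 9 meningeal and 0 of 3 ligand and matrix members. Pdgfrb, a defining pericyte gene, stayed between 1.4 and 46.1 in neurospheres, Pecam1 at no more than 111.4, Vwf between 1.4 and 52.4 and Dcn between 14.4 and 167.8. Tie1 reached the median on no array of any kind. Pdgfrb, Abcc9, Vtn and Dcn reached it on all 8 tissue arrays and on no neurosphere array, as did 1.34% of all genes.

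**Figure D3:**
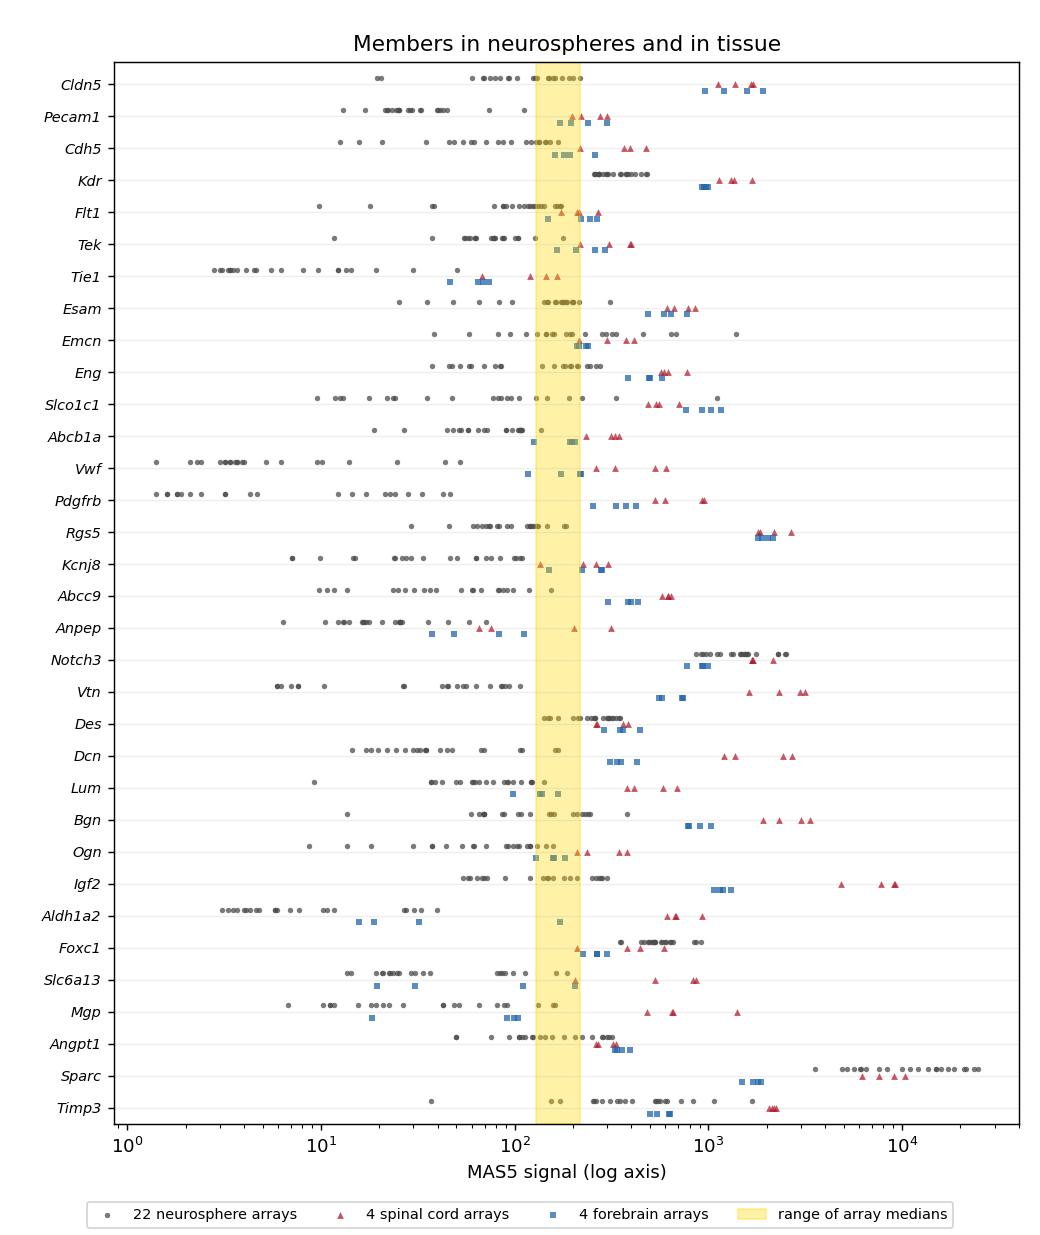
MAS5 signals (log axis) of the 33 members on the 22 neurosphere arrays (grey), the 4 spinal cord arrays (red) and the 4 forebrain arrays (blue); the band spans the array medians, 128.9 to 217.4. Kdr, Notch3, Foxc1 and Sparc lie right of the band on all neurosphere arrays, while Pdgfrb, Vwf and Tie1 lie far left of it.

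Heterozygous neurospheres were then set against heterozygous forebrain. Of 31 members, 3 were called higher in neurospheres and 19 lower, where 50.9% of all genes were called, 26.5% higher and 24.4% lower. The median difference of the members was -1.82 and that of all genes -0.05. Of the 19 called lower, 14 reached the array median on none of the 3 heterozygous neurosphere arrays, and 10 on none of the 12 neurosphere arrays without a further virus, so those 10 entered the test through tissue, where they are high. For Ogn and Aldh1a2 that tissue was spinal cord, since they reached the median on 0 of the 2 heterozygous forebrain arrays. Their calls of lower signal therefore compare groups that both lie below the array medians. Culture, age, brain region, Ink4a/Arf genotype and EGFRvIII all differ between these groups and cannot be told apart. The pericyte marker Rgs5 read 45.7 to 116 in neurospheres, against 1897 and 1801 in forebrains, the largest fall of the members (-4.39, SE 0.40, adjusted p 3.8e-08).

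Lower by more than 3 on the log2 scale were also Cldn5 (-3.87), Slco1c1 (-3.78), Abcc9 (-3.59), Vtn (-3.20), Bgn (-3.16) and Pdgfrb (-3.14). Sparc read 15036, 10996 and 6527 in neurospheres, against 1488 and 1692 in forebrains, and was the member most above forebrain (2.68, SE 0.29, adjusted p 3.2e-07). Foxc1 read 598, 529 and 575 in neurospheres, against 267 and 300 in forebrains (0.96, SE 0.30, adjusted p 0.011). Emcn, an endothelial surface sialomucin, read 318, 462 and 643 in neurospheres, against 239 and 234 in forebrains (0.90, SE 0.35, adjusted p 0.0373). In each of these 3 genes all neurospheres exceeded both forebrains, as was so for 33% of all genes. The call of Emcn was lost when either forebrain, line 15 or line 26 was left out, and that of Foxc1 when the forebrain of embryo 3 was left out (adjusted p 0.0706 to 0.154). Calls of lower signal were lost for Ogn without either forebrain or line 26, for Aldh1a2 without the forebrain of embryo 3, line 15 or line 26, for Eng without either forebrain or line 11, and for Kcnj8 without the forebrain of embryo 4 (adjusted p 0.0529 to 0.581).

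**Figure D4:**
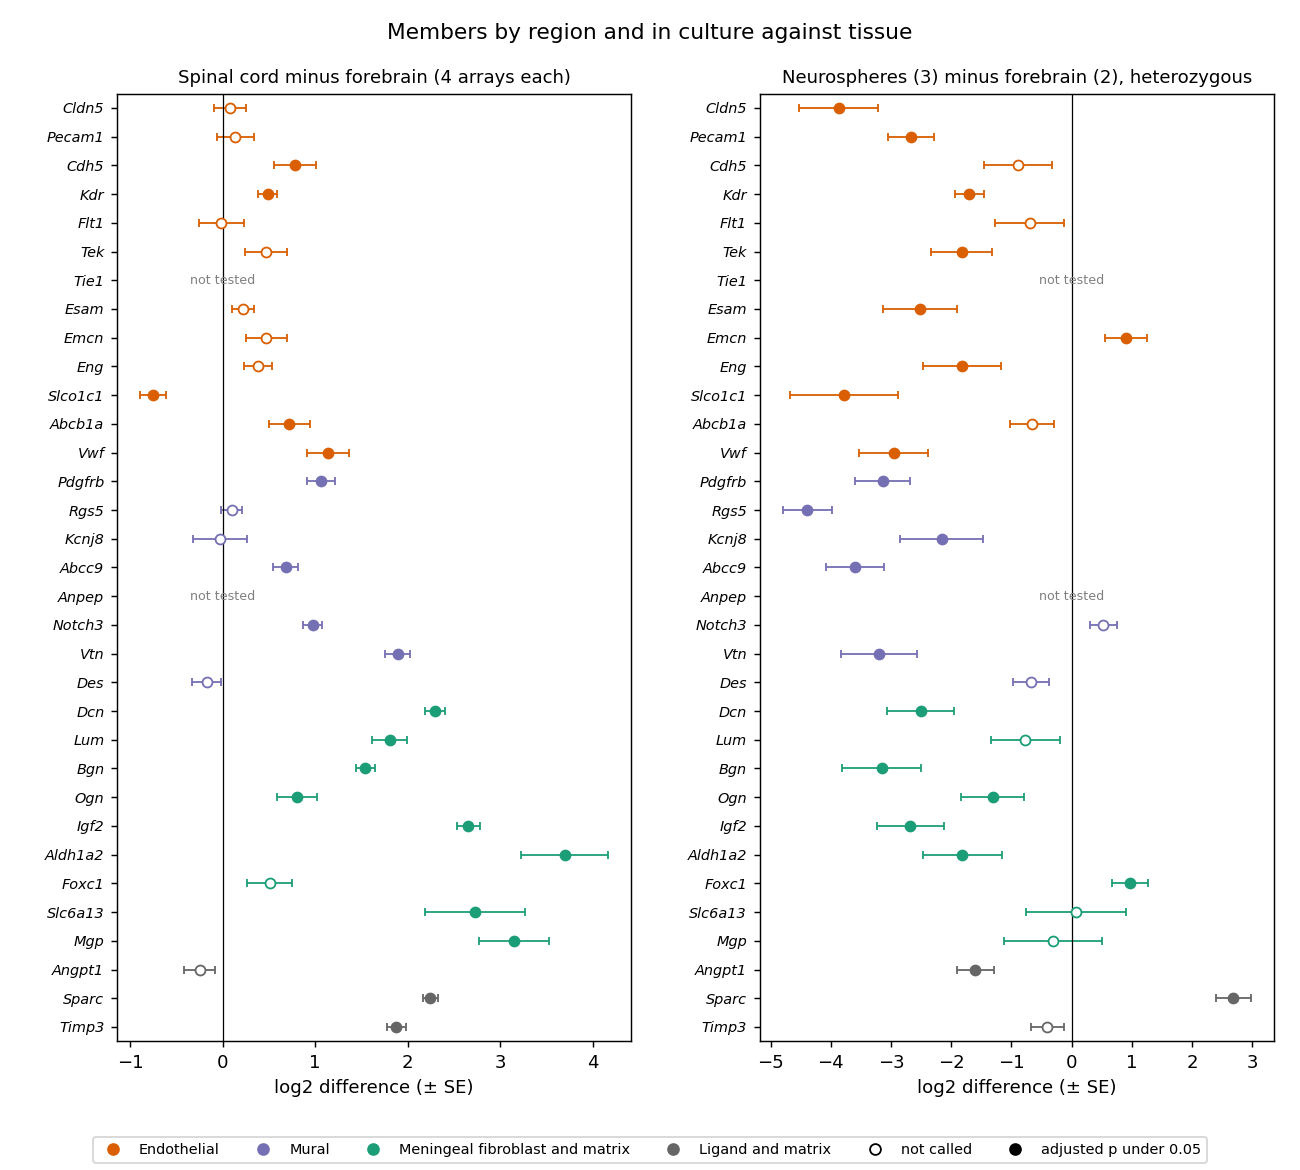
Log2 differences with SE for spinal cord minus forebrain (left, 4 arrays each) and for heterozygous neurospheres minus heterozygous forebrain (right, 3 and 2 arrays); colours mark the cell classes, and filled points are called at an adjusted p under 0.05. On the left the meningeal points lie furthest right, with Aldh1a2 at 3.70; on the right most points lie left of 0, and Sparc lies at 2.68.

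The promoters of the members called in the neurosphere comparisons on genotype and on the Olig2 label are shown because Olig1 and Olig2 are basic helix-loop-helix factors, a family that binds the E-box CANNTG. The 250 bases before the transcript start that the table uses are given 5′ to 3′ on the gene's strand, from the RefSeq table of build GRCm38.p6, which held an entry for 25 of the 34 members, and capitals mark each CANNTG, which reads the same on both strands. The windows are chr11:55420081-55420330 (minus strand, Sparc), chr3:137340828-137341077 (plus strand, Emcn), chr10:86300162-86300411 (plus strand, Timp3) and chr17:32166891-32167140 (minus strand, Notch3), and Angpt1, also called, is not shown. The Emcn and Notch3 windows overlap the outermost gene bounds of the same build, so the table uses a start inside those bounds for them.
Sparc: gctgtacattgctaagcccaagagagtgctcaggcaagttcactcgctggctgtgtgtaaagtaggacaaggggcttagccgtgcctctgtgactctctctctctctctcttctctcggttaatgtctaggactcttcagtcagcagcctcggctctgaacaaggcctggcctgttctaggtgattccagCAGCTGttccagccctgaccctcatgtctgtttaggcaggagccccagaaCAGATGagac
Emcn: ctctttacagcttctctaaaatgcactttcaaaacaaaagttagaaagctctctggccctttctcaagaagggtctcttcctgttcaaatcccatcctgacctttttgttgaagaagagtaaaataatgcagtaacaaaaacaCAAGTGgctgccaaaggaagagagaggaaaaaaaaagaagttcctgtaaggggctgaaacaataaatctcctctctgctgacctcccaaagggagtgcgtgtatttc
Timp3: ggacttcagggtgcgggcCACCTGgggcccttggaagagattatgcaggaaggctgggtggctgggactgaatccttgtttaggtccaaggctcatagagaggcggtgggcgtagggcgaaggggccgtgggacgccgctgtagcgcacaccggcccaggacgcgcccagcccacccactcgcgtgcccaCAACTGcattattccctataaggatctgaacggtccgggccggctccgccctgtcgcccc
Notch3: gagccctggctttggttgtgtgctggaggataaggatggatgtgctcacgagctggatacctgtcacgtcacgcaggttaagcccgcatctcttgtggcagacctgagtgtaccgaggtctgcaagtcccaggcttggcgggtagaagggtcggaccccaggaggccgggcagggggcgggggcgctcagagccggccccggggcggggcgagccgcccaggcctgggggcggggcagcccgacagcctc
The Sparc and Timp3 windows hold 2 matches each, the Emcn window 1 and the Notch3 window 0. Of all 32851 promoter windows of this length in the table, 66.2% hold at least 1 match, so a match describes the letters and marks no bound site, and its absence says only that these letters are not in the window.

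In the neurospheres, 4 of the 13 members bright enough to test differed with the Olig genotype. Null cultures were compared with the 6 cultures that retain Olig1 and Olig2 copies, 3 heterozygous and 3 wild-type. Angpt1 and Sparc were higher and Emcn and Timp3 lower in null cultures. Called members numbered 4 of 13, where 8.32% of all genes were called, 4.34% higher and 3.98% lower. Angpt1 entered the test through the null cultures, since it reached the array median on all 6 of them and on none of the other 6. All 4 calls held under each of the 19 alternatives tried for this comparison. All null cultures lay above all the others for Angpt1 and below them for Emcn, which compares with 2.45% and 2.01% of all genes.

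Angpt1 had the lowest, median and highest signal at 222, 285 and 319 in null cultures, against 49.7, 101.1 and 156 in the other cultures. Every null culture exceeded every other culture. The difference was 1.40 (SE 0.24, limma adjusted p 0.00175). A second Angpt1 probe set near background gave -0.13. Sparc stood at 13552, 16519 and 24671 in null cultures, against 6091, 9280 and 15036 in the other cultures. Its groups overlapped through heterozygous line 11 at the top of the range, and the difference was 0.90 (SE 0.21, limma adjusted p 0.0143).

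Emcn stood at 146, 174 and 231 in null cultures, against 283, 398 and 681 in the other cultures. Every null culture lay below every other culture, with a difference of -1.21 (SE 0.23, limma adjusted p 0.00368). The arrays labelled GFP did not keep this order: Emcn read 159.8, 82.2 and 114.1 in null lines, against 58.1 and 1396 in heterozygous lines 11 and 15. Timp3 stood at 154, 259.9 and 369.6 in null cultures, against 350, 533 and 834 in the other cultures. The groups overlapped where null line 13 exceeded heterozygous line 26, and the difference was -0.94 (SE 0.20, limma adjusted p 0.00773). Slco1c1 had a larger difference, 1.92 (SE 0.68), that was not called (adjusted p 0.11): null cultures spread from 17.8 to 1104, against at most 85.2 in the other cultures. It too entered the test through null cultures, since no heterozygous or wild-type culture reached the array median. Foxc1 was at 0.49 (adjusted p 0.0779) and Notch3 at -0.37 (adjusted p 0.204). Null line 16 held the lowest Slco1c1 and the highest Notch3 of the null cultures. Without that line Slco1c1 was called at 2.44 (limma adjusted p 0.0148) and Notch3 at -0.49 (adjusted p 0.0299). Foxc1 was called without null line 21 or 24 (adjusted p 0.0392 and 0.0466).

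**Figure D5:**
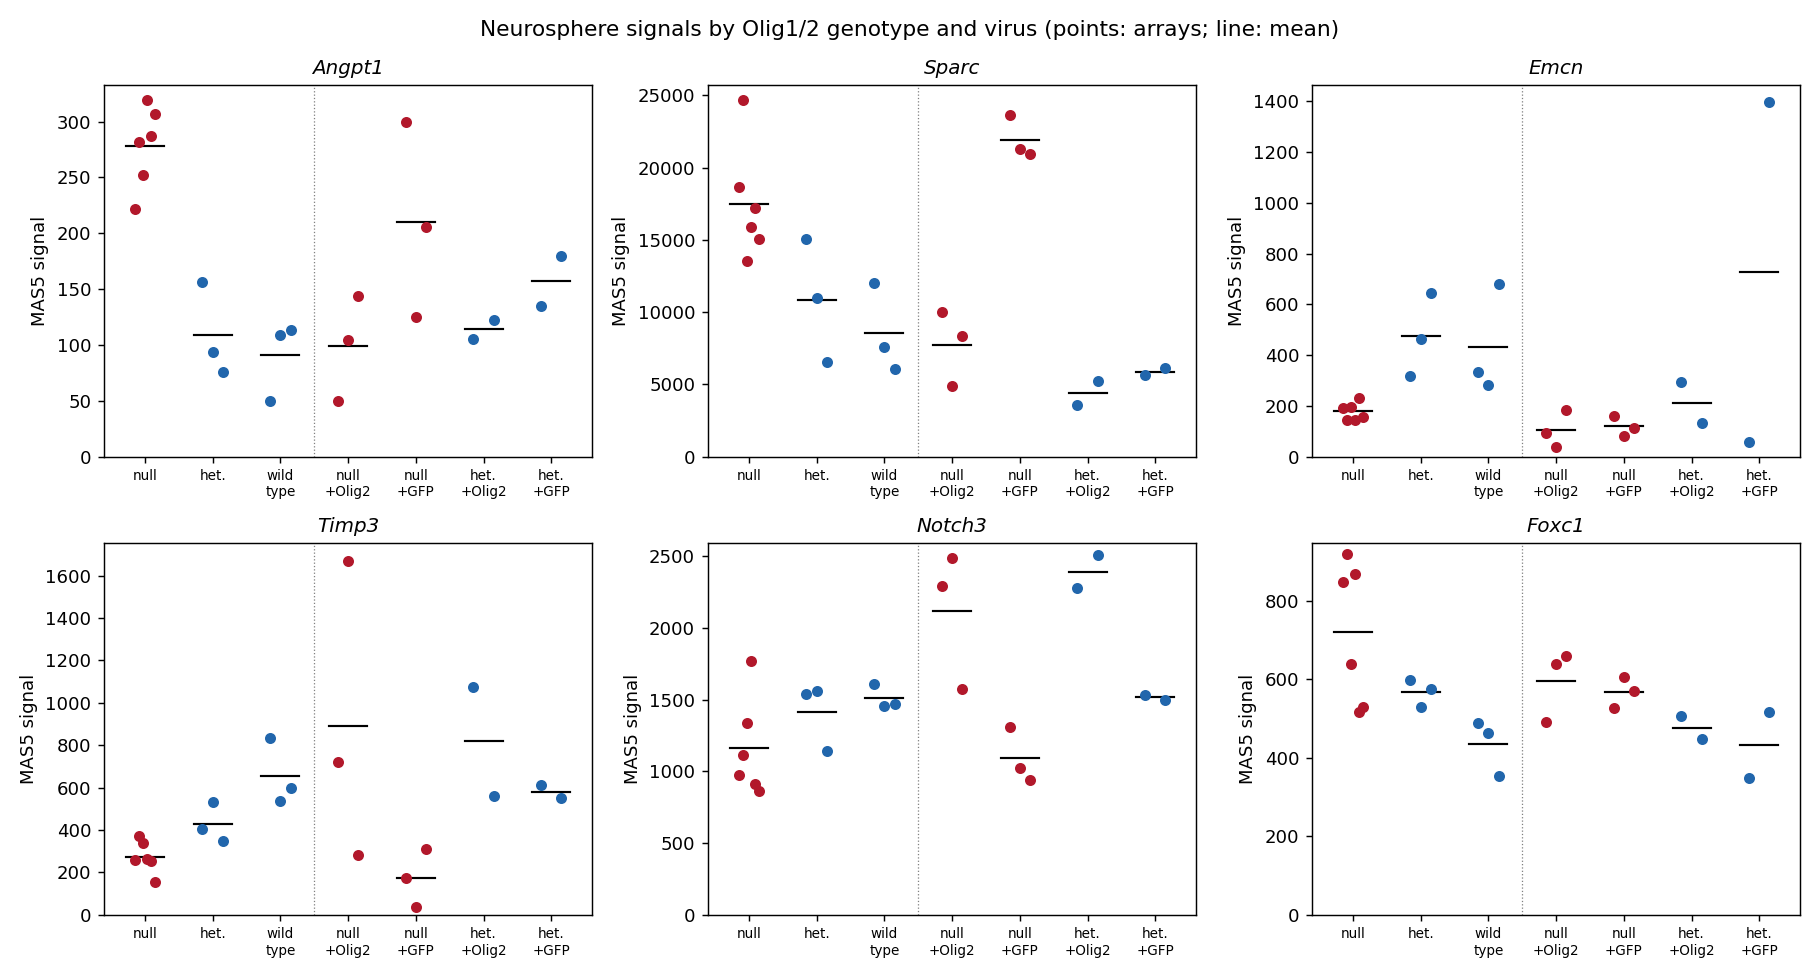
MAS5 signals of 6 members in neurospheres; each point is 1 array, the line is the group mean, red marks null and blue marks heterozygous or wild-type cultures, and the dotted line separates cultures without a further virus (left) from those with Olig2 or GFP virus (right). Null points of Angpt1 lie above, and those of Emcn below, all heterozygous and wild-type points left of the dotted line; null arrays labelled Olig2 lie below those labelled GFP for Sparc and above them for Notch3.

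The last comparison set arrays labelled Olig2 against arrays labelled GFP in the same 3 null lines. Among 13 members tested, null arrays labelled Olig2 had lower Sparc and higher Notch3 than null arrays labelled GFP. Over all genes 7.88% were called, 3.24% higher and 4.64% lower, 404 and 578 genes, and scaling to the 75th percentile turned that split into 303 and 1025 as it moved the median of all genes by over 0.1, to -0.09. Sparc read 10002, 4871 and 8377 on arrays labelled Olig2 (lines 12, 13 and 14), against 23635, 21258 and 20916 on arrays labelled GFP. The groups were far apart, with a difference of -1.56 (SE 0.23, limma adjusted p 0.0035), and the call held in all 14 alternatives. Of the other Sparc probe sets, one gave -1.10 and the dimmest gave 0.67. The heterozygous lines, which were not tested, read 3543 and 5216 on arrays labelled Olig2, against 5664 and 6100 on arrays labelled GFP.

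Notch3, a receptor gene listed here among the mural members, read 2293, 2487 and 1578 on null arrays labelled Olig2, against 1313, 1025 and 939 on null arrays labelled GFP. The groups did not overlap, as was so for 13.8% of all genes in this direction and, for Sparc, 14.8% in the other. The Notch3 difference was 0.93 (SE 0.18, limma adjusted p 0.0126). The call was lost without the Olig2 array of line 12 (0.86, adjusted p 0.059) or of line 13 (0.81, adjusted p 0.0551). Heterozygous lines, not tested, read 2277 and 2510 on arrays labelled Olig2, against 1533 and 1499 on arrays labelled GFP, and on these arrays too the Olig2 reading was lower where the label says Olig2. Timp3 read 720, 1671 and 282 on null arrays labelled Olig2, against 172, 37.1 and 312 on null arrays labelled GFP, a difference of 2.27 (SE 0.66) that was not called (adjusted p 0.0586). It was called when the Olig2 or the GFP array of line 14 was left out (2.91 and 2.84, adjusted p 0.0177 and 0.0426). Its other probe sets gave 1.44, 2.02 and 2.51, and Timp3 was called through the first when every probe set was tested (limma adjusted p 0.0189). Angpt1 was at -0.99 (SE 0.43, adjusted p 0.182) and Emcn at -0.30 (SE 0.87, adjusted p 0.861), so neither was called. The GFP array of line 13 had a Gapdh ratio of 0.43 and an A260/A280 ratio of 2.83, while the other 5 null arrays with virus had ratios from -0.25 to -0.04 and from 1.77 to 1.88, and the part of this array's RNA in the result was not tested beyond leaving it out.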

How the data were processed

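MAS5 signals were deposited for all 30 Affymetrix mouse arrays. The authors' values have the unit intensity on a linear scale, with a mean of 500 on each array after the lowest and highest 2% of probe sets are left out, as read from the values; MAS5 is named per the submitters' processing notes, with no version. Groups, line numbers and embryo numbers were taken from the labels. Of 45101 probe sets, 34945 non-control ones carried a single symbol in the platform annotation. The probe set with the highest average log2 value across the 30 arrays stood for each of 18193 genes. Values were log2 of the signal plus 16, and a difference understates the change of dim genes. Genes entered a test if they were at or above the median of at least as many arrays as the smallest group of the fit holds.

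The test was that of limma, version 3.58.1, under R 4.3.3 (lmFit, contrasts, eBayes with trend), two-sided, with Benjamini-Hochberg adjustment over all genes tested in that comparison, and called at an adjusted p under 0.05. The 4 tissue groups shared 1 estimate of spread, as did the 10 arrays with virus. There were 7 comparisons. Data were read with data.table (version 1.17.8) and plotted with matplotlib 3.10.9 in python 3.11.15. The scripts were tested on simulated data. The number of arrays, 2 to 6 a group, limits the precision, and p-values measure the spread between these cultures and embryos.

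The members, their classes, the 13 companion lists and the tests were chosen with earlier results of these data known. All 34 members are named, with full statistics for those called, and where none is called for the 3 of largest difference; companion genes are up to 4 of smallest p in a list, and Ttr, Myh3 and further members' values were chosen after they were seen. Same-numbered tissue arrays come from the same embryo and same-numbered arrays with virus from the same line; the correlations of their deviations from the group means were -0.001 to 0.097. Alternatives were pseudocounts 1 and 64, no filter, quantile and 75th percentile scaling, every probe set, probe sets without cross-hybridisation, each tissue alone, the replicate block, and leaving out single arrays.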

Additional observations from a re-analysis of the deposited data

Results flagged for a closer look

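Among the 6 null cultures without a further virus, 7 of 33 members had a highest value that stood far from the other cultures (Dixon's test at the 95% level). The nominal rate of that test, about 1 of 20 groups, assumes normally distributed values. Signals entered it on the linear scale, so the 7 of 33 cannot be set against that rate. Slco1c1 read 1103.8 in line 12, with the next culture at 333.4. Tek read 178.1 and Aldh1a2 read 32.8 in line 21. Vwf read 43.6 and Mgp read 131.4 in line 16. Tie1 read 13.4 and Anpep read 70.9 in line 24. Of these only the Slco1c1 and Tek values reached the median of their array.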

How the results depend on the processing

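Most values of single members kept their call as higher, lower or not called. These were 395 of 403 in cord, 396 of 396 in forebrain and 496 of 496 for the difference between tissues. They were 479 of 496 between tissues, 243 of 247 for null neurospheres and 175 of 180 for the Olig2 virus. For neurospheres against forebrain they were 380 of 403. Whether members that were not called kept their direction was not counted. Members called between null and heterozygous cords fell to 0 with a pseudocount of 1 and with no filter. Genes called in forebrain were 3 with no filter and 2 with the 4 forebrain arrays alone. Genes called for the difference between tissues were 1 each with a pseudocount of 64, with every probe set and with probe sets that may cross-hybridise left out. With cross-hybridising probe sets left out, Abcc9 turned to -0.13 between spinal cord and forebrain, while a dimmer Abcc9 probe set gave 0.51. Leaving out each array in turn, genes and members called were 2 to 11 and 0 to 0 in cord, 3 to 10 and 0 to 0 in forebrain, 0 to 2 and 0 to 0 for their difference, 4189 to 4559 and 17 to 20 between tissues, 764 to 954 and 4 to 6 for the null neurospheres, 298 to 1171 and 1 to 3 for the Olig2 virus (298 without the Olig2 array of line 12, 355 without that of line 13, 527 and 553 without the GFP arrays of lines 13 and 14), and 5669 to 6649 and 17 to 22 for neurospheres against forebrain. With the embryo or line as a block, genes called were 16 in cord, 5 in forebrain, 0 for their difference, 4956 for spinal cord minus forebrain, 1244 for the Olig2 virus and 6960 for neurospheres against forebrain, and members called were 1, 0, 0, 19, 2 and 22, as without it. No paired analysis was possible because the null and other neurosphere lines share no number. Signal near background limits what can be said of the members that neurospheres do not express.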

Other observations

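Vascular signalling ligands, which are not members, were read in the same fits. Against heterozygous forebrain, heterozygous neurospheres had higher Angpt2, which encodes an angiopoietin that modulates Tek (5.81, SE 0.50, limma adjusted p 1.4e-08), and higher Jag1, a Notch ligand (3.10, SE 0.22, adjusted p 1.3e-09), with 4 of 13 ligands higher and 2 lower, where 26.5% and 24.4% of all genes were called. Of 24 other endothelial genes tested there, 4 were called higher and 14 lower, with a median of -1.08. Plvap and Cd93, from that list, went against its median and were higher (4.97 and 3.70). On null arrays labelled Olig2, against those labelled GFP, the ligand gene Vegfa was higher by 1.39 (SE 0.17, limma adjusted p 0.0016). In spinal cord, against forebrain, 4 of 11 ligands tested were called higher and 2 lower, where 21.3% and 18.7% of all genes were called. Wnt7b, a ligand of brain vessel growth, was among the 2 that were lower, at a mean signal of 1037 ± 63.8 in cords and 2395 ± 118 in forebrains (SD, n = 4 each; limma adjusted p 7.4e-07).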
